A study of Mus musculus with 33 samples.

Results

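The 36 genes described here carry out or regulate glycolysis and the response to low oxygen. They were found by name in the 4 deposited expression tables of a study of the imprinted gene Zac1, named Plagl1 in the tables. All 36 were present, among 27825 genes in each tongue table and 25965 genes in the table of sorted cells. By role, 17 are glycolytic enzymes, 5 are glucose or lactate transporters, 3 are pyruvate dehydrogenase kinases and 11 belong to the hypoxia response. They were chosen by function, with no measured value in the rule, but with earlier results of these data known.

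RNA was sequenced from mouse tongues of embryonic stage E13.5, of the day of birth (P0) and of day P20, with 3 biological replicates expressing Zac1 biallelically (mice that the labels call Zac1o knockouts) and 3 wild type replicates per stage. From ribcages of E18.5 embryos, cells carrying Cd24a and Cd200 were sorted and labelled as prehypertrophic costal chondrocytes, giving 6 biallelic and 5 wild type replicates, each a small pool of cells. The sources used here do not give strain, sex or litter, nor whether a tongue replicate is 1 animal, so that p-values measure the spread between these replicates. Tongue RNA was freed of ribosomal RNA, and was extracted with AllPrep at E13.5 but with TRIsure at both later stages, whereas the sorted cells gave polyadenylated RNA for SMART-seq2 libraries. Values are RPM, reads scaled to the size of the library, and wherever genes are compared with each other they are RPM per kilobase of exon.

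Glycolysis splits glucose into pyruvate, and most of its steps can be run by several isozymes that differ between tissues: muscle forms such as Pfkm, Pgam2 and Eno3 stand beside forms found in many cell types, such as Pfkl, Pgam1 and Eno1. Lactate dehydrogenase turns pyruvate into lactate, while pyruvate dehydrogenase kinases inhibit pyruvate dehydrogenase, the mitochondrial enzyme that turns pyruvate into acetyl-CoA. When oxygen is low, prolyl hydroxylases such as those encoded by Egln1 and Egln3 no longer mark the factor HIF1 for destruction, and HIF1 then raises transcription of many glycolytic genes together with Vegfa, Bnip3, Ndrg1 and others. The tongue is largely skeletal muscle after birth, and growth plate cartilage has no vessels.

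Libraries held between 36832717 and 92249098 reads in tongue and between 2938462 and 15689559 in the sorted cells. Hence 3 reads were worth 0.0325 to 0.0814 RPM in tongue and 0.191 to 1.02 RPM in the sorted cells. Depth went with genotype in the sorted cells, at 7221013 to 15689559 reads in biallelic and 2938462 to 7887305 reads in wild type libraries. Plagl1 checked the genotype labels: in each of the 4 tables every biallelic library stood above every wild type library, for example at 157 to 275 RPM in biallelic against 66.1 to 105 RPM in wild type tongues of E13.5, and at 17.5 to 50 RPM in biallelic against 3.18 to 15.3 RPM in wild type sorted cells. Muscle and epithelial genes marked the tongues at all 3 stages. The sorted cells went against their label, because 16 myeloid genes summed to 4192 to 5736 RPM in biallelic and 4456 to 5496 RPM in wild type libraries, while 17 chondrocyte genes summed to 387 to 1048 RPM in biallelic and 247 to 643 RPM in wild type libraries. Csf1r, a macrophage receptor, stood at 549.8 to 861 RPM in biallelic and 291 to 598 RPM in wild type libraries, whereas Ihh, a gene of prehypertrophic chondrocytes, stood at 0 to 1.52 RPM in biallelic and 0 to 0.173 RPM in wild type libraries. The cartilage collagen Col2a1 was present, at 245 to 759.9 RPM in biallelic and 154 to 433 RPM in wild type libraries. They are called sorted costal cells here. Libraries that stood apart from their group on the first principal component were biallelic replicate 3 at E13.5 and at P20, biallelic replicate 1 with wild type replicate 2 at P0, and wild type replicates 7, 8 and 9 of the sorted cells.

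Between E13.5 and P0 the muscle enzymes Eno3, Pgam2 and Pfkm rose in wild type tongues, while their widespread counterparts Eno1, Pgam1 and Pfkl fell. Between E13.5 and P0, with 3 libraries per stage and limma's moderated test over all 18 tongue libraries, 17 of the 36 genes rose and 9 fell at an adjusted p under 0.05. Among the 13603 genes tested in that fit, 37.9% rose and 40.1% fell. Between P0 and P20, 9 of the 36 rose and 3 fell, where 31.9% of all genes rose and 14.9% fell. The median difference of the 36 was 0.63 on the log2 scale in the first step and 0.33 in the second, against -0.04 and 0.22 over all genes. Scaling moved the second split, to 7 rising and 6 falling with median centring, where 20.6% of all genes rose and 23.1% fell, and to 7 and 8 with quantile normalisation, where 22.9% rose and 24.4% fell. The RNA kit changed together with the first step, so that kit and stage cannot be told apart there. In whole tissue, fewer cells of a type and less RNA per cell cannot be told apart. Summed RPM of 20 skeletal muscle genes was 663 to 1190.2 RPM in wild type tongues at E13.5, 29811 to 37155 RPM at P0 and 25931 to 35153 RPM at P20, 17 of the 20 rose and 2 fell in the first step, and their part in the changes of the 36 genes was not tested.

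Eno3, the muscle enolase, measured 17, 26.3 and 10 RPM at E13.5, 456, 518 and 486 RPM at P0 and 291, 371 and 349 RPM at P20 in biallelic tongues. Wild type tongues had 11.4, 21.6 and 12 RPM at E13.5, 616, 594 and 516 RPM at P0 and 454, 347 and 283 RPM at P20. In both genotypes every P0 library lay far above every E13.5 library, and in wild type tongues P0 exceeded E13.5 by 5.32 ± 0.28 on the log2 scale (SE, limma adjusted p = 7.672e-11). Pgam2, the muscle phosphoglycerate mutase, measured 5.57, 9.56 and 3.04 RPM at E13.5, 107, 108 and 103 RPM at P0 and 67.9, 85.2 and 128 RPM at P20 in biallelic tongues. Wild type tongues had 8.75, 10.9 and 6.24 RPM at E13.5, 149, 146 and 106 RPM at P0 and 109, 92.1 and 68.3 RPM at P20. Its E13.5 and P0 groups did not overlap in either genotype, and the wild type rise was 3.97 ± 0.33 (log2, SE, limma adjusted p = 1.105e-08).

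Pfkm, the muscle form of phosphofructokinase, which sets the pace of glycolysis, measured 16.5, 23 and 37.1 RPM at E13.5, 178, 189 and 190.0 RPM at P0 and 280.0, 356 and 421 RPM at P20 in biallelic tongues. Wild type tongues had 21.6, 24.7 and 25.2 RPM at E13.5, 249.8, 258 and 201 RPM at P0 and 368, 333 and 272 RPM at P20. All P0 libraries lay above all E13.5 libraries, with a wild type rise of 3.30 ± 0.22 (log2, SE, limma adjusted p = 9.644e-10). Aldoa, the aldolase of muscle and many other tissues, measured 95.2, 98.7 and 86.8 RPM at E13.5, 749, 798 and 595 RPM at P0 and 975, 790.0 and 589 RPM at P20 in wild type tongues. Every library after birth stood above every E13.5 library, by 2.92 ± 0.32 between E13.5 and P0 (log2, SE, limma adjusted p = 3.3e-07). Pfkp, the platelet form of phosphofructokinase, measured 1.84, 2.17 and 2.16 RPM at E13.5, 14.2, 23.1 and 17.2 RPM at P0 and 23.8, 25.4 and 29 RPM at P20 in wild type tongues, again with all E13.5 libraries lowest and a rise of 3.12 (log2, limma adjusted p = 9.634e-06).

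Hk2, the hexokinase of muscle, which starts the pathway, measured 11.1, 10.3 and 10.9 RPM at E13.5, 45.4, 44.6 and 39.9 RPM at P0 and 121, 131 and 107 RPM at P20 in wild type tongues. Each stage lay above the one before without overlap, by 2.01 between E13.5 and P0 (log2, limma adjusted p = 0.00114) and by 1.47 between P0 and P20 (limma adjusted p = 0.01959). Hk1, the widespread hexokinase, measured 6.14, 8.91 and 8.39 RPM at E13.5, 16.1, 16.2 and 15 RPM at P0 and 36.6, 34.9 and 44.5 RPM at P20 in wild type tongues and also stood higher at each stage, by 1.03 in the first step and 1.28 in the second (log2, limma adjusted p = 0.006928 and 0.003527). Gpi1, the isomerase that follows the hexokinases, measured 45.5, 51.1 and 45.8 RPM at E13.5, 157, 145 and 135 RPM at P0 and 126, 127 and 115 RPM at P20 in wild type tongues and rose by 1.62 in the first step (log2, limma adjusted p = 1.051e-05). Eno2, the neuronal enolase, stood low throughout, at 0.596, 0.687 and 1.54 RPM at E13.5, 1.93, 1.57 and 2.88 RPM at P0 and 1.07, 1.27 and 1.19 RPM at P20 in wild type tongues, and rose by 1.26 in the first step (log2, limma adjusted p = 0.004951).

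Pfkl, Eno1 and Pgam1, forms found in many cell types, fell between E13.5 and P0. Pfkl, the liver form of phosphofructokinase, measured 35.1, 34 and 34.1 RPM at E13.5, 7.14, 15 and 6.38 RPM at P0 and 11.6, 10.1 and 10.9 RPM at P20 in wild type tongues. Its E13.5 libraries were the highest, with a log2 difference of -1.96 between P0 and E13.5 (limma adjusted p = 0.000285). Eno1, the widespread enolase, measured 42.3, 35.4 and 35.2 RPM at E13.5, 20.2 ± 1.76 RPM at P0 (mean, SD, n = 3) and 21, 18.6 and 18.8 RPM at P20 in wild type tongues, and differed by -0.90 in the first step (log2, limma adjusted p = 0.001729). Pgam1, the widespread mutase, measured 6.71, 5.59 and 6.62 RPM at E13.5, 1.01, 1.16 and 1.38 RPM at P0 and 3.97, 3.52 and 4.03 RPM at P20 in wild type tongues. It was lowest at P0, by -2.42 against E13.5 (log2, limma adjusted p = 4.96e-07), and stood 1.71 higher at P20 than at P0 (log2, limma adjusted p = 0.0001222).

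Ldhb, the lactate dehydrogenase subunit of heart, measured 30.8, 37 and 43.3 RPM at E13.5, 5.25, 3.89 and 4 RPM at P0 and 23.7, 26.5 and 31.9 RPM at P20 in biallelic tongues. Wild type tongues had 41.4, 34.7 and 41.8 RPM at E13.5, 3.93, 4.8 and 3.65 RPM at P0 and 30.3, 28.2 and 21 RPM at P20. P0 lay below both other stages in every library, with a wild type log2 difference of -3.26 ± 0.17 against E13.5 (SE, limma adjusted p = 8.079e-11), and P20 stood 2.68 ± 0.17 above P0 (SE, limma adjusted p = 1.813e-08). Ldha, the subunit of muscle, measured 120.1, 87.1 and 95.3 RPM at E13.5, 163, 185 and 136 RPM at P0 and 123, 102 and 81.7 RPM at P20 in wild type tongues and passed in neither step. Tpi1, which interconverts the triose phosphates, measured 207, 131 and 159 RPM at E13.5, 239, 261 and 218 RPM at P0 and 173, 128 and 121 RPM at P20 in wild type tongues. It did not pass in the first step and fell in the second, by a log2 difference of -0.78 (limma adjusted p = 0.02821, lost in 4 of 25 alternative settings). Aldoc, the brain aldolase, stood at 0.721 to 2.25 RPM over the wild type tongues and passed in neither step.

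Gapdh, the dehydrogenase in the middle of the pathway, measured 7.07, 7.44 and 6.95 RPM at E13.5, 11.3, 8.18 and 8.59 RPM at P0 and 6.72, 6.45 and 6.41 RPM at P20 in wild type tongues. It passed barely in the first step, at 0.37 (log2, limma adjusted p = 0.04966), a call lost in 14 of 25 alternative settings, and fell in the second by a log2 difference of -0.51 (limma adjusted p = 0.02018, lost in 3 of 25). Near-identical copies of Gapdh and Pgam1, and of Eno1, Ldha, Tpi1 and Aldoa, lie elsewhere in the mouse genome. How reads matching several places were counted is unknown from the sources used here, so the levels of these genes are uncertain.

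Levels per kilobase set the isozymes side by side. As a share of RPM per kilobase within the family, Pfkm held a median of 47.3% in biallelic tongues at E13.5, 96.5% at P0 and 96.8% at P20, and Eno3 held 55.5%, 98.4% and 98.2%. Pfkm held a median of 58.5% in wild type tongues at E13.5, 96.4% at P0 and 96.7% at P20, while Pfkl held 40.2%, 1.53% and 1.53%. In wild type tongues Eno3 shared the enolase transcripts with Eno1 about evenly at E13.5, at 50.2% and 47.5%, and held 98.7% at P0 and 98.2% at P20. Pgam2 held 75.5%, 99.7% and 98.4% of the mutase pair in wild type tongues across E13.5, P0 and P20. The lactate dehydrogenases did not follow this course, since wild type Ldha held 54.3% at E13.5, 94.8% at P0 and 64.8% at P20. Shares are descriptions with no test.

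**Figure D1:**
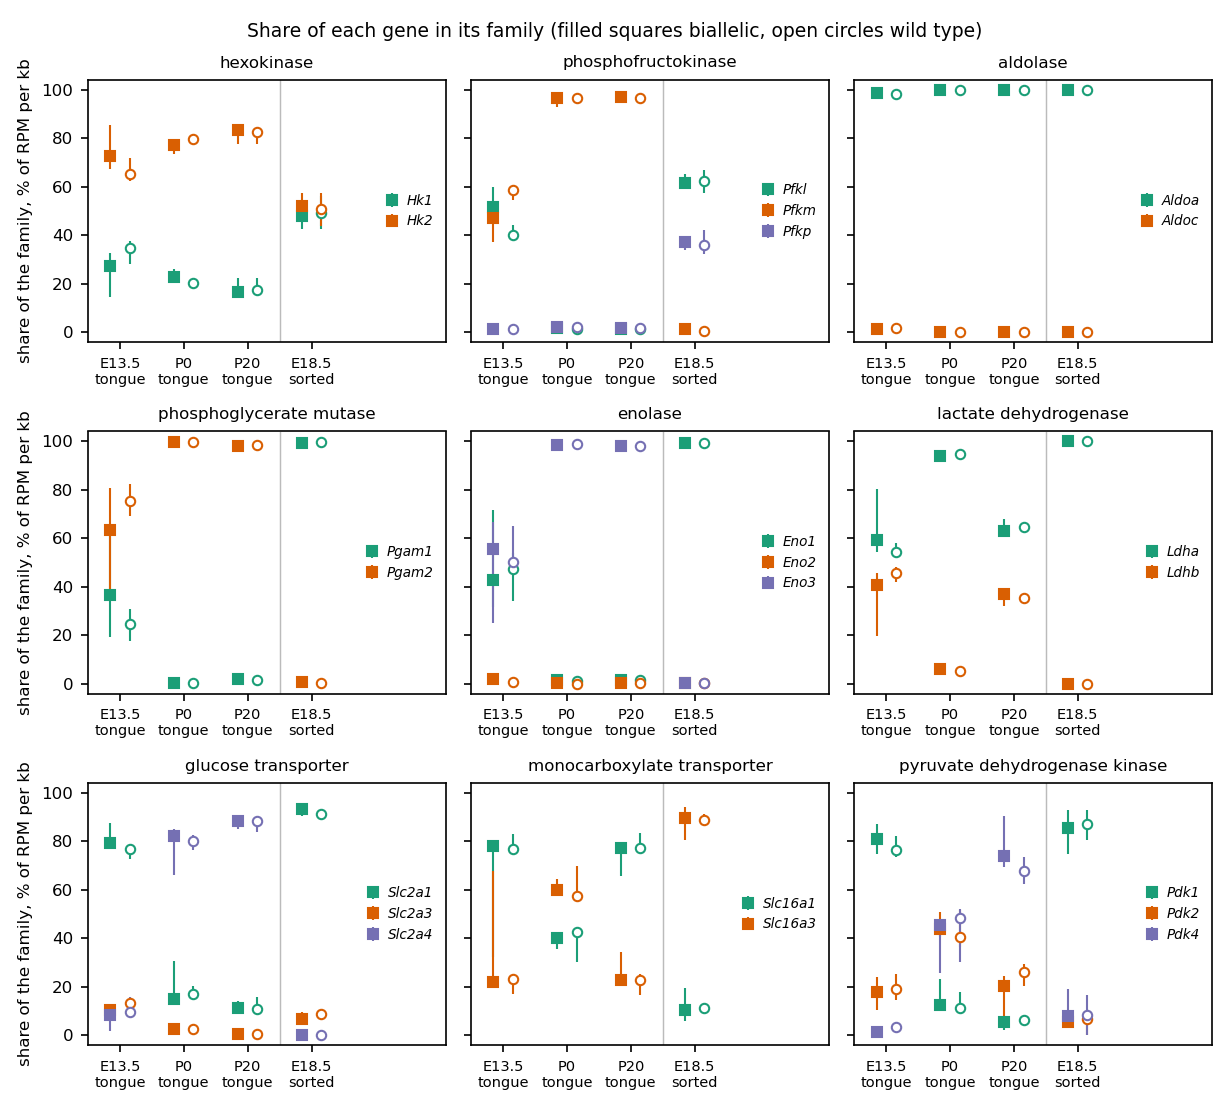
Share of each gene in the RPM per kilobase of its family, in percent, for biallelic (filled squares) and wild type (open circles) libraries at each stage and in the sorted cells. Symbols are medians and lines run from the lowest to the highest library. Pfkm holds 58.5% in wild type tongues at E13.5 and 96.4% at P0, and Pfkl holds 62.4% in the wild type sorted cells. The order of Pfkl and Pfkp in the sorted cells depends on the exon lengths used.

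Glucose transporters exchanged places over the same time. Slc2a4, the insulin-responsive transporter of muscle and fat, measured 6.7, 5.32 and 7.93 RPM at E13.5, 33.4, 45.7 and 44.5 RPM at P0 and 85.2, 104 and 95.8 RPM at P20 in biallelic tongues. Wild type tongues had 5.7, 7.4 and 4.76 RPM at E13.5, 44.4, 44.8 and 39.7 RPM at P0 and 105, 91.7 and 75.1 RPM at P20. In both genotypes each stage lay above the one before without overlap, by 2.87 ± 0.18 (log2, SE, limma adjusted p = 4.389e-10) and then 1.07 ± 0.18 (limma adjusted p = 0.0001892) in wild type tongues. Slc2a1, the basal transporter of most cells, measured 46.9, 34.7 and 42.2 RPM at E13.5, 8.07, 12 and 8.48 RPM at P0 and 12.1, 11.3 and 14.1 RPM at P20 in wild type tongues. Its E13.5 libraries all stood above the later ones, with a log2 difference of -2.13 ± 0.53 between P0 and E13.5 (SE, limma adjusted p = 0.001549). Slc2a3, the neuronal transporter, measured 16.5, 11.6 and 16.4 RPM at E13.5, 2.74, 4.35 and 2.84 RPM at P0 and 1.79, 1.8 and 1.37 RPM at P20 and fell in the first step by a log2 difference of -2.18 (limma adjusted p = 0.0007017).

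Slc16a3, which exports lactate from glycolytic cells, measured 5.85, 5.74 and 7 RPM at E13.5, 40.9, 49.3 and 30.9 RPM at P0 and 10.8, 10.1 and 5.86 RPM at P20 in wild type tongues. P0 was the highest stage, by 2.68 ± 0.72 over E13.5 (log2, SE, limma adjusted p = 0.002777), and P20 differed from P0 by -2.20 (log2, limma adjusted p = 0.0194). Slc16a1, a lactate transporter of many cell types, measured 23.5, 15.5 and 19.3 RPM at E13.5, 25.7, 17.9 and 19.2 RPM at P0 and 30.4, 24.7 and 24.7 RPM at P20 and passed in neither step.

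Of the kinases that inhibit pyruvate dehydrogenase, Pdk4 is the isoform of fasting and fat use. In biallelic tongues Pdk4 measured 0.208, 0.244 and 1.06 RPM at E13.5, 15, 35.2 and 34.4 RPM at P0 and 113, 104 and 517 RPM at P20. Wild type tongues had 0.647, 0.229 and 0.846 RPM at E13.5, 43.5, 26.3 and 40.1 RPM at P0 and 117, 107 and 60 RPM at P20. The E13.5 libraries stood near 0 beside the later ones, and the log2 difference between P0 and E13.5 was 6.16 ± 0.66 (SE, limma adjusted p = 2.678e-07). Pdk2, a kinase of muscle and other tissues, measured 2.49, 3.62 and 3.21 RPM at E13.5, 32.7, 40.2 and 25.4 RPM at P0 and 29, 37.4 and 25.6 RPM at P20 in wild type tongues and rose by 3.39 (log2, limma adjusted p = 3.987e-10). Pdk1, a HIF1 target, measured 34.3, 25.9 and 31.6 RPM at E13.5, 22.1, 34.4 and 19.3 RPM at P0 and 22.7, 21.6 and 17.7 RPM at P20 in wild type tongues and passed in neither step. As a share of the 3 kinases per kilobase, Pdk1 held a median of 76.4% at E13.5, 11.3% at P0 and 6.4% at P20, while Pdk4 held 3.42%, 48.5% and 67.6%.

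The hypoxia response genes shared no direction between E13.5 and P0, 3 of the 11 rising and 3 falling. Over all genes, 37.9% rose and 40.1% fell in that step. Ndrg1, a stress-induced cytoplasmic protein, measured 2.56, 2.1 and 2.6 RPM at E13.5, 20.1, 27.2 and 18.9 RPM at P0 and 39.3, 39.8 and 40.7 RPM at P20 in wild type tongues. Each stage lay above the one before, and the first step was 3.18 ± 0.83 (log2, SE, limma adjusted p = 0.00222). Egln3, a prolyl hydroxylase that is itself a HIF1 target, measured 2.69, 2.14 and 2.43 RPM at E13.5, 8.41, 17.3 and 6.96 RPM at P0 and 25.3, 25.6 and 19.1 RPM at P20 and rose by 2.06 in the first step (log2, limma adjusted p = 0.01149), a call lost without wild type replicate 2 of P0. Adm, which encodes the vessel-relaxing peptide adrenomedullin, had 0, 0 and 3 reads in the wild type E13.5 libraries and 0.876, 1.54 and 0.726 RPM at P0. It passed the test in the first step, but its fitted size depends on the value set for 0 reads and is not given.

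Falling between E13.5 and P0 were Ankrd37, Ddit4 and Hif1a. Ankrd37, a HIF1 target, measured 0.984, 1.13 and 1.01 RPM at E13.5, 0.292, 0.155 and 0.336 RPM at P0 and 0.654, 0.412 and 0.705 RPM at P20 in wild type tongues, with a first step of -2.07 (log2, limma adjusted p = 0.001382). Ddit4, which restrains mTOR under stress, measured 9.22, 8.28 and 9.03 RPM at E13.5, 2.55, 4.96 and 1.66 RPM at P0 and 7.26, 5.87 and 10.6 RPM at P20 in wild type tongues and differed by -1.68 in the first step (log2, limma adjusted p = 0.007517) and by 1.48 in the second (limma adjusted p = 0.02801, lost in 7 of 25 alternative settings). P0 was thus its lowest stage. Hif1a, the oxygen-regulated subunit of HIF1, measured 69.8, 56.2 and 63 RPM at E13.5, 47.4, 41.4 and 43.8 RPM at P0 and 40.1, 41.1 and 39.9 RPM at P20 in wild type tongues and differed by -0.51 in the first step (log2, limma adjusted p = 0.001372).

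Between P0 and P20 the 4 hypoxia genes that passed all rose, Ddit4 among them, where 31.9% of all genes rose and 14.9% fell. Bnip3, a mitophagy receptor, measured 14.4, 13.8 and 14.7 RPM at E13.5, 8.59, 14.3 and 6.89 RPM at P0 and 35.3, 28.5 and 28.5 RPM at P20 in wild type tongues. P20 lay above P0 without overlap, by 1.69 (log2, limma adjusted p = 0.02497), a call lost in 6 of 25 alternative settings. Egln1, the main oxygen-sensing prolyl hydroxylase, measured 15.8, 13.1 and 13.2 RPM at E13.5, 21, 21.5 and 19.9 RPM at P0 and 55.4, 56.9 and 44.6 RPM at P20 in wild type tongues and rose by 1.32 (log2, limma adjusted p = 0.0008642). Higd1a, a mitochondrial inner membrane protein, measured 4.89, 5.13 and 6.38 RPM at E13.5, 4.41, 3.86 and 3.77 RPM at P0 and 7.63, 6.68 and 6.06 RPM at P20 in wild type tongues and rose by 0.76 (log2, limma adjusted p = 0.007033). Vegfa, the vessel growth factor, measured 13.4, 22.5 and 18.8 RPM at E13.5 in wild type tongues. It measured 38.5, 29 and 32.9 RPM at P0 and 63.1, 69.1 and 53.6 RPM at P20. Each stage lay above the one before without overlap, but Vegfa passed in neither step. Ero1l, at 9.69 to 13.8 RPM over all wild type tongues, also passed in neither step. From P0 to P20, Vegfa, Ero1l, Egln3, Ndrg1 and Ankrd37 stood higher without overlap in wild type tongues but did not pass. Over that step Adm overlapped and Hif1a stood lower.

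Within biallelic tongues, 9 of the 36 genes rose and 14 fell between E13.5 and P0, and 13 rose and 1 fell between P0 and P20. Over all genes, 39.8% rose and 37.7% fell in the first of these steps, and 30% rose and 17.3% fell in the second. Replicate 3 of E13.5 entered these counts. Without it, the first step gave 18 rising and 10 falling, where 40% of all genes rose and 36.8% fell. The second gave 17 rising and 5 falling without it, where 32.7% of all genes rose and 18.8% fell. The library also enters the estimate of spread shared by all 18 libraries, and the wild type counts between P0 and P20 were 15 rising and 8 falling without it, where 34.4% of all genes rose and 16.3% fell.

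**Figure D2:**
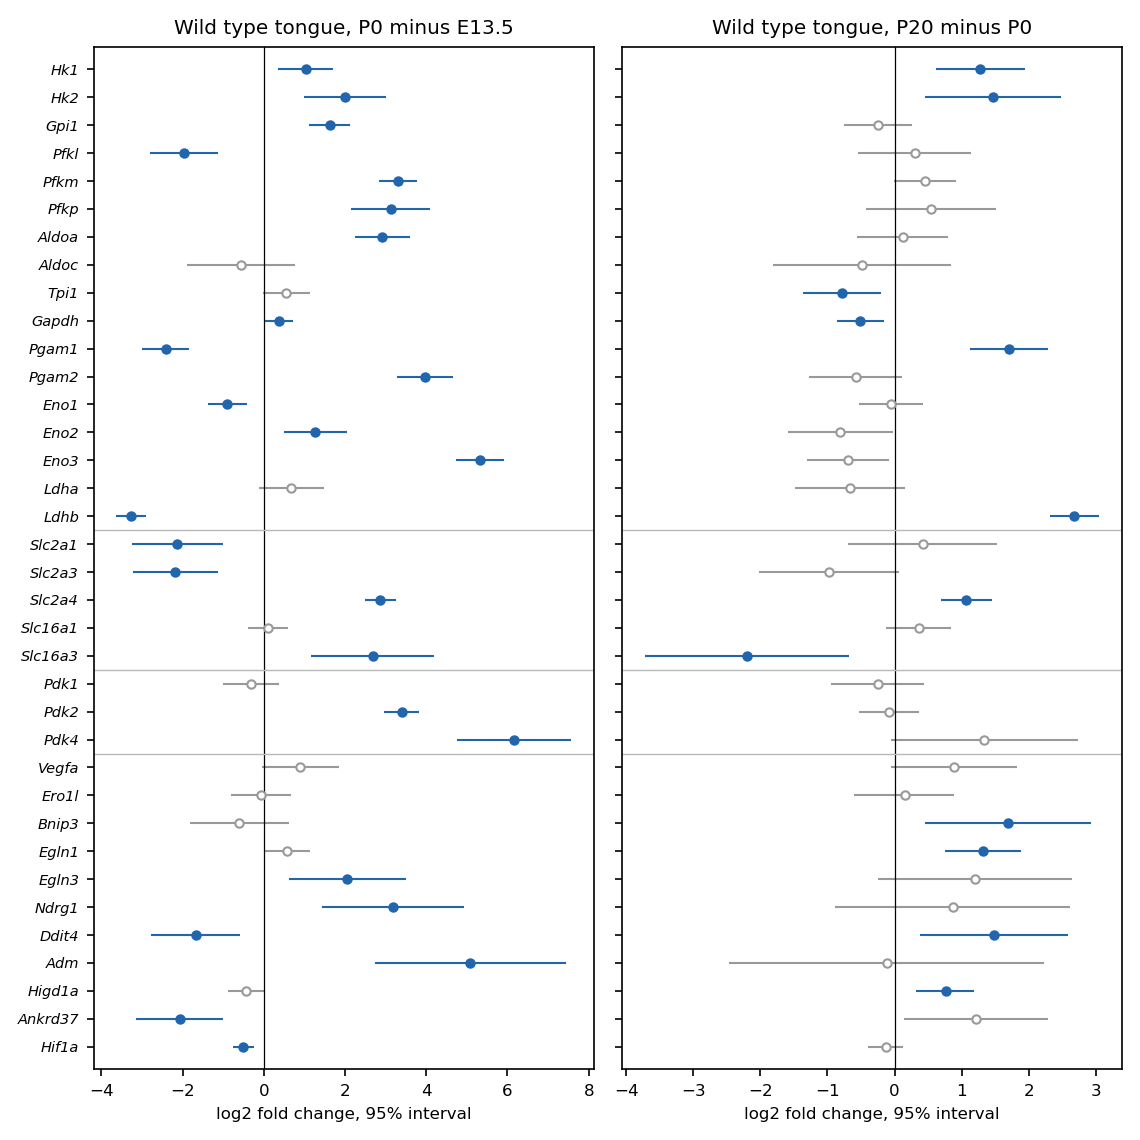
Log2 difference between stages in wild type tongues for the 36 genes, P0 minus E13.5 and P20 minus P0, with 95% intervals, values above 0 meaning higher at the later stage and filled points passing at an adjusted p under 0.05. The size shown for Adm in the first contrast depends on the value set for 0 reads. Eno3 at 5.32 and Pdk4 at 6.16 are among the largest in the first contrast, and Ldhb stands at -3.26 in the first and 2.68 in the second.

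Further genes of the same pathways were counted in wild type tongues from lists chosen by function, with earlier results of these data known. Over all genes, 37.9% rose and 40.1% fell in the first step, and 31.9% rose and 14.9% fell in the second. Of 16 other glycolysis genes tested, 7 rose and 3 fell between E13.5 and P0, with Pgm2 at 3.29, Dlat at 1.55 and Pdp2 at -1.25 on the log2 scale as the largest differences. Of 43 other hypoxia response genes, 18 rose and 11 fell, led by Bhlhe41 (4.98), Bhlhe40 (3.86) and Sap30 (-3.74). Pfkfb3 and Pfkfb4 are on both of these lists. Of 7 HIF subunits and regulators, 3 rose and 3 fell: Epas1, the HIF2 subunit of endothelium, differed by 3.71, Vhl, which targets HIF for degradation, by -2.04 and Arnt, the partner of HIF1, by 1.13. Between P0 and P20 the other glycolysis genes gave 6 rising and 1 falling, with Pfkfb2 at 1.30, Slc2a12 at 1.20 and Pfkfb4 at 1.05. Over that step the other hypoxia genes gave 10 rising and 6 falling, with Ppfia4 at -3.22, Lox at -2.82 and Selenbp1 at 2.80. The HIF regulators gave 1 rising and 3 falling, with Hif3a at -2.63, Epas1 at 2.0 and Arnt2 at -1.78.

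No gene of the 36 passed the test for genotype in any of the 4 tables. In all, 34 could be tested in the E13.5 tongues, 33 in the P0 tongues, 34 in the P20 tongues and 34 in the sorted cells. Those below 1 RPM in too many libraries were Pdk4 and Adm at E13.5, Aldoc, Adm and Ankrd37 at P0, Aldoc and Ankrd37 at P20, and Pgam2 and Slc2a4 in the sorted cells. Over all genes, 0% passed in the E13.5 table, 0.016% in the P0 table, 0% in the P20 table and 0% in the sorted cells. Plagl1, which separated the genotypes in each table, did not pass at E13.5 either, at 1.20 ± 0.23 (log2, SE, limma adjusted p = 0.9922). A count of 0 there thus does not show that genotype had no effect. At an unadjusted p under 0.05 limma gave 2 members in each tongue table and 1 in the sorted cells. Of all genes, the tongues had 3.25% past that threshold at E13.5, 3.3% at P0 and 2.25% at P20, and the sorted cells had 11.7%. At the adjusted threshold, voom on recovered reads also called 0 members. The smallest limma adjusted p of a member was 0.9922 in the E13.5 table, 0.9998 in the P0 table, 1 in the P20 table and 0.4232 in the sorted cells. When the genotype effect was compared between stages, 0 members and 0% of all genes passed.

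At E13.5 most members had higher means in biallelic tongues, with a median difference of 0.55 on the log2 scale over the 34 genes and 31 of them above 0, against a median of -0.06 over all genes. By role the medians were 0.52 for enzymes, 0.88 for transporters, 0.41 for the 2 kinases tested and 0.61 for hypoxia genes. The groups of 4 members, Pfkl, Aldoa, Slc2a1 and Bnip3, did not overlap between the genotypes and stood higher in biallelic tongues, and 10.1% of all genes did not overlap in either direction. The largest single estimates were 1.48 ± 0.86 for Slc16a3, 1.39 ± 1.06 for Ndrg1, 1.33 ± 0.50 for Eno2 and 1.25 ± 0.70 for Bnip3 (log2, SE, 3 biallelic and 3 wild type libraries, limma adjusted p = 0.9922 for each). Without biallelic replicate 3 the median over the members was 0.06, with 23 of 34 above 0, and the estimates were 0.13 for Slc16a3, -0.24 for Ndrg1, 0.95 for Eno2 and 0.16 for Bnip3.

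At P0 the median was -0.13, with 25 of 33 members below 0, against 0.04 over all genes. Hk2 and Pfkm did not overlap between the groups and stood lower in biallelic tongues, and 8.9% of all genes did not overlap in either direction. Hk2 stood at 34.6, 33.4 and 38 RPM in biallelic and 45.4, 44.6 and 39.9 RPM in wild type tongues, a log2 difference of -0.29 ± 0.10 (SE, limma adjusted p = 0.9998). Pfkm stood at 178, 189 and 190.0 RPM in biallelic and 249.8, 258 and 201 RPM in wild type tongues, with -0.34 ± 0.11 (limma adjusted p = 0.9998). At P20 the median was 0.06, with 23 of 34 members above 0, against -0.02 over all genes. Gapdh and Adm did not overlap and stood higher in biallelic tongues, and 6.89% of all genes did not overlap in either direction. Gapdh stood at 7.22, 7.55 and 7.87 RPM in biallelic and 6.72, 6.45 and 6.41 RPM in wild type tongues, with 0.21 ± 0.09 (log2, SE, limma adjusted p = 1). Adm, at 1.29, 1.31 and 1.45 RPM in biallelic and 0.72, 0.893 and 1.19 RPM in wild type tongues, gave 0.56 ± 0.24 (log2, SE, limma adjusted p = 1).

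Of the further pathway genes, 0 passed the genotype test in any table. Among the largest differences at E13.5 were 1.13 for Ak4 and 0.98 for Pfkfb3 on the log2 scale (limma adjusted p = 0.9922 for each), and without biallelic replicate 3 they were 0.33 for Ak4 and -0.10 for Pfkfb3. At P0 they included 0.98 for Hif3a and -0.86 for Ppp1r3c (limma adjusted p = 0.9998), and at P20 1.37 for Angptl4, -0.81 for P4ha3 and 0.64 for Hif3a (limma adjusted p = 1). Without biallelic replicate 3 of P20, Angptl4 stood at 0.53 and Hif3a at 0.91. In the sorted cells they included 2.20 for Ppfia4 and 1.22 for Bpgm (limma adjusted p = 0.4232 and 0.5175), and Bpgm stood at 0.67 without wild type replicates 7, 8 and 9. Both sizes rest on few reads and depend on the value set for 0 reads. Ppfia4 stood at 0.574 to 3.88 RPM in biallelic and 0 to 0.765 RPM in wild type cells. Bpgm stood at 1.41 to 6.92 RPM in biallelic and 0 to 4.08 RPM in wild type cells.

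**Figure D3:**
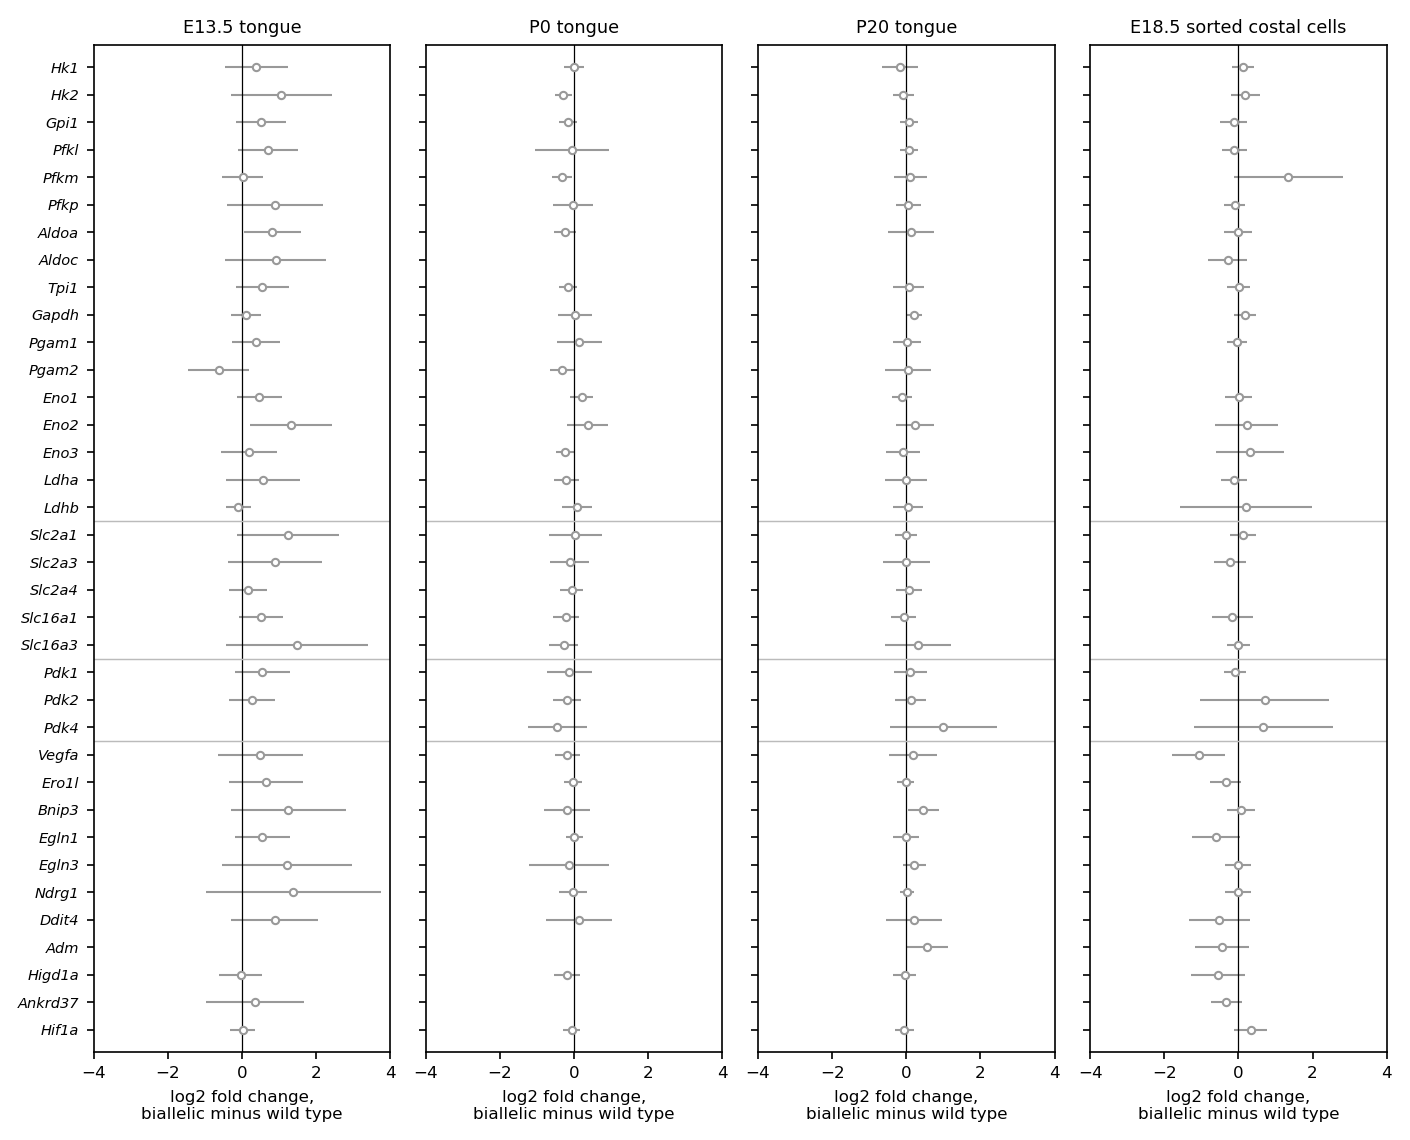
Log2 difference between biallelic and wild type libraries for the 36 genes in each of the 4 tables, with 95% intervals, values above 0 meaning higher in biallelic libraries and rows without a point being genes not tested there. No gene passed at an adjusted p under 0.05, and the E13.5 median of 0.55 is above the P0 median of -0.13 and the P20 median of 0.06.

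Biallelic replicate 3 of the E13.5 tongues stood far from the other 5 libraries of its stage in these pathways. For 22 of the 34 tested genes it stood at least 2-fold above the highest of the other 5, which 1.08% of all 11869 tested genes did, and for 0 of the 34 did it stand at least 2-fold below the lowest, which 1.02% did. It was the highest library for 30 of the 34, as it was for 29% of all genes. These values describe 1 library, with no test.

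The highest ratios in it belonged to a lactate transporter and to hypoxia genes. Slc16a3 measured 111 RPM there, against 5.74 to 7 RPM in the other 5 libraries. Slc2a1 measured 366 RPM, against 34.7 to 50 RPM, and Slc2a3 89.2 RPM, against 11.6 to 16.5 RPM. Slc2a1 and Slc2a3 carry glucose into cells and Slc16a3 carries lactate out. Ndrg1 measured 61.3 RPM, against 1.57 to 2.63 RPM, Bnip3 155 RPM, against 13.8 to 17.1 RPM, and Egln3 29.9 RPM, against 2.14 to 2.69 RPM. Vegfa measured 73.1 RPM, against 13.4 to 22.5 RPM, and Ddit4 50 RPM, against 8.28 to 9.91 RPM. Relative to the median of the other 5, Ndrg1 stood 23.9 times as high, Slc16a3 16.6 times, Egln3 12.3 times and Bnip3 10.6 times. None of these genes overlapped the range of the others. Ero1l, an oxidase of the endoplasmic reticulum, stood at 48.3 RPM, against 9.69 to 13.8 RPM, Egln1 at 40 RPM, against 13.1 to 15.8 RPM, and Ankrd37 at 3.75 RPM, against 0.716 to 1.13 RPM. Adm, under the filter, had 132 reads there, against 0 to 4 reads in each other library.

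Enzymes of several steps of glycolysis were higher in the same library, and the muscle forms Pgam2 and Eno3 were not. Hk2 measured 83.3 RPM there, against 10.3 to 12.6 RPM in the other 5, and Hk1 20.3 RPM, against 5.8 to 8.91 RPM. Pfkl stood at 119 RPM, against 34 to 41.2 RPM, and Pfkp at 11.7 RPM, against 1.69 to 2.77 RPM. Aldoa stood at 333 RPM, against 86.8 to 124 RPM, and Aldoc at 10.7 RPM, against 1.26 to 2.07 RPM. All of these lay outside the range of the others by more than 2-fold. So did Gpi1 at 125 RPM, against 45.5 to 52.5 RPM, Tpi1 at 439.9 RPM, against 131 to 207 RPM, and Eno1 at 88.7 RPM, against 35.2 to 42.3 RPM. Ldha stood at 375 RPM, against 87.1 to 120.1 RPM, and the kinase Pdk1 at 87.4 RPM, against 25.9 to 34.3 RPM. Both are above the 2-fold bound too. Pgam2 and Eno3 were each the lowest of the 6 libraries, Pgam2 at 3.04 RPM, against 5.57 to 10.9 RPM, and Eno3 at 10 RPM, against 11.4 to 26.3 RPM. Hif1a, whose protein rather than its mRNA is regulated by oxygen, stood at 77.9 RPM, against 56 to 69.8 RPM. The remaining members, Pfkm, Gapdh, Pgam1, Eno2, Ldhb, Slc2a4, Slc16a1, Pdk2 and Higd1a, stood between 1.17 and 2.52 times the median of the others. Ldha held 80.4% of the lactate dehydrogenase transcripts per kilobase in that library, Slc16a3 67.9% of both lactate transporters and Hk2 85.5% of both hexokinases.

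The library stood apart beyond the 36 genes, at 47.5 on the first principal component of its table, against -19.9 to -1.6 for the others. Bhlhe40, a HIF1-induced repressor, measured 13.1 RPM there, against 0.855 to 1.27 RPM, and Pfkfb3, which makes the activator of phosphofructokinase, 33.2 RPM, against 3.01 to 4.73 RPM. In all, 14 of 42 other hypoxia genes, 2 of 16 other glycolysis genes and 1 of 7 HIF regulators stood at least 2-fold above every other library. Pfkfb3 is in both the hypoxia and the glycolysis count. Markers of other cells moved too. Erythroid genes summed to 1713 RPM, against 301 to 853 RPM in the other 5, and 3 of the 8 tested stood at least 2-fold above, the embryonic globins Hbb-bh1 and Hba-x and the red cell anion exchanger Slc4a1. Of 11 endothelial genes 3 stood at least 2-fold above, among them Flt1, which is also in the hypoxia count. Of 14 skeletal muscle genes 2 stood at least 2-fold below and 0 above. Their part in the values of the 36 genes was not tested.

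**Figure D4:**
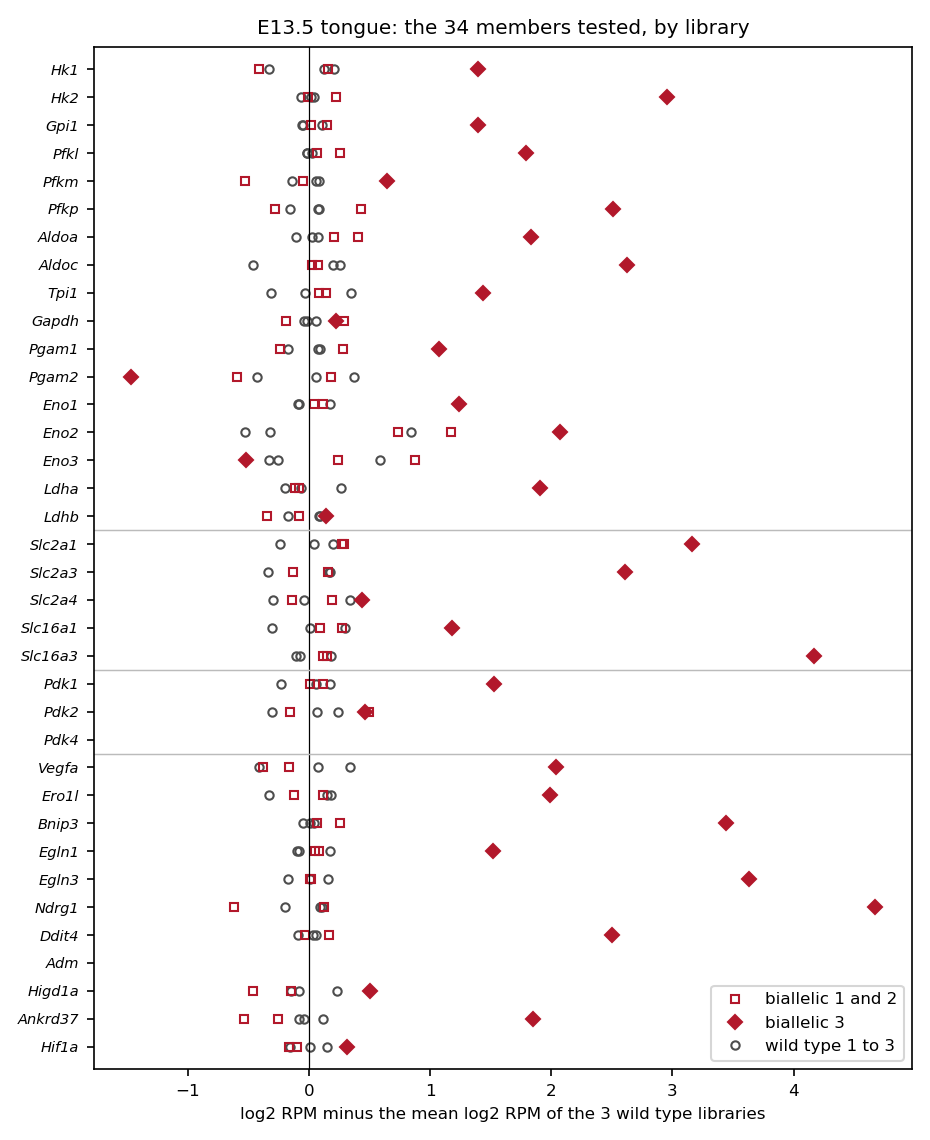
The 34 genes tested in the 6 tongue libraries of E13.5, each as log2 RPM minus the mean log2 RPM of the 3 wild type libraries. Diamonds are biallelic replicate 3, open squares the other biallelic libraries and open circles wild type libraries, and Pdk4 and Adm have no symbols because they were not tested. Slc16a3 stands at 111 RPM in that library, against 5.74 to 7 RPM in the other 5, while Eno3 and Pgam2 are lowest in it.

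Promoter sequences are shown for some genes high in that library, for Hif1a and for Pgam2, so that the core of the hypoxia response element can be read beside the values. HIF binds the core ACGTG or GCGTG, and its reverse complements are CACGT and CACGC. The 250 bases before the first annotated start of each gene (RefSeq, GRCm38.p6) are printed 5′ to 3′ along the gene's own strand, with these cores in capitals, matches on both strands being counted and overlapping matches counted separately. Coordinates are chr11:120948817-120949066 (+) for Slc16a3, chr7:138909507-138909756 (-) for Bnip3, chr4:119108495-119108744 (+) for Slc2a1, chr12:54203875-54204124 (-) for Egln3, chr12:73907617-73907866 (+) for Hif1a and chr11:5803797-5804046 (-) for Pgam2.
Slc16a3: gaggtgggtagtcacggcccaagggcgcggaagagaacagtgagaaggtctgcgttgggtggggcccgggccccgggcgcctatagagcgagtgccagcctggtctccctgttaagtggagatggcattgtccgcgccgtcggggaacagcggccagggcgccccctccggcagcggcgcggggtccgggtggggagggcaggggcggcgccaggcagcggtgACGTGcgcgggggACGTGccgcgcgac
Bnip3: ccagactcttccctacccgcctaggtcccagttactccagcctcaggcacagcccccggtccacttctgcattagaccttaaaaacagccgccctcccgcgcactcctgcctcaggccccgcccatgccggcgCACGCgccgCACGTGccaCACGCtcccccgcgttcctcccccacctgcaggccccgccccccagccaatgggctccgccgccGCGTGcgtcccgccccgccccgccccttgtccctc
Slc2a1: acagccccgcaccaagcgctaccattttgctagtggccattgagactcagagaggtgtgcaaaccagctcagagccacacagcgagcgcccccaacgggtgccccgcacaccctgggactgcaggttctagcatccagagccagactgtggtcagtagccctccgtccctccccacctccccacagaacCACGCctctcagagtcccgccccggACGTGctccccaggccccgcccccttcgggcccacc
Egln3: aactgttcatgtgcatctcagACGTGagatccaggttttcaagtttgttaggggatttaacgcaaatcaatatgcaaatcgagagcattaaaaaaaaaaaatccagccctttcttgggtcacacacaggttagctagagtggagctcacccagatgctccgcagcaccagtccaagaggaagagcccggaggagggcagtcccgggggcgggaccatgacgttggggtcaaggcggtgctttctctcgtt
Hif1a: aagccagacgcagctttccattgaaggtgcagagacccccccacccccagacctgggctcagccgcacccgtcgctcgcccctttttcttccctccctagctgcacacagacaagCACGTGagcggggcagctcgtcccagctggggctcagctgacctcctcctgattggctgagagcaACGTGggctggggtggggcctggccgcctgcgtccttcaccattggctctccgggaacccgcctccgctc
Pgam2: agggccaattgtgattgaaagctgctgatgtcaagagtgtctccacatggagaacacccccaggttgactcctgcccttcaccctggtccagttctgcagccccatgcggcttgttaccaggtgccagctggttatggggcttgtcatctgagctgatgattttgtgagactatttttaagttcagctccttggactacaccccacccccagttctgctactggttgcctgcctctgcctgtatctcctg
Slc16a3 and Slc2a1 held 2 cores each, Bnip3 held 5, Egln3 held 1, Hif1a held 3 and Pgam2 held 0. Of the 33 members found in the promoter table, 26 (78.8%) held at least 1 core and 18 (54.5%) held 2 or more, whereas 10431 of all 27025 promoters (38.6%) held at least 1, as did 4867 of 8359 promoters (58.2%) of genes tested at E13.5. The share with 2 or more was 16.8% over all promoters and 28.6% over those of genes tested at E13.5. The core was present in 15 of 20 members (75%) that stood at least 2-fold above in biallelic replicate 3 and in 11 of 13 other members (84.6%). Hif1a, with 3 cores, differed little in that library, and Vegfa held 0 in the window of its first start while standing 4.6 times above the median of the others. Gpi1, Tpi1, Hk1 and Aldoa, each at least 2-fold above, also held 0 before the first start. Later annotated starts differed: Hk1 held 3 and Vegfa 2 before start 2, and Aldoa held 1 before each of starts 2 and 3. Gpi1 and Tpi1 had 1 annotated start each. Eno3, lowest in that library as Pgam2 was, held 1. Promoters of Slc2a3, Slc2a4 and Ndrg1 were not available. A match is a description of these letters and not a binding site.

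At P20, biallelic replicate 3 stood apart for Pdk4, at 517 RPM, against 60 to 117 RPM in the other 5 tongues, and 0.276% of the 12693 tested genes stood at least 2-fold above the highest other library there. Vegfa there was 111 RPM, against 52.9 to 69.1 RPM, Slc16a3 18.7 RPM, against 5.86 to 10.8 RPM, and Ldha 141 RPM, against 81.7 to 123 RPM. It was the highest library for 18 of 34 members, as it was for 23% of all genes. The genotype difference of Pdk4 was 1.0 ± 0.61 (log2, SE, limma adjusted p = 1) with that library and 0.25 without it.

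At P0, biallelic replicate 1 and wild type replicate 2 stood together, at 28.0 and 29.0 on the first principal component against -20.5 to -7.1 for the others. Pfkl stood at 15.1 RPM in that biallelic and 15 RPM in that wild type library, against 5.96 to 7.14 RPM in the other 4, and Egln3 at 17.9 RPM in that biallelic and 17.3 RPM in that wild type library, against 6.45 to 8.41 RPM. Slc2a1 stood at 15.8 RPM in biallelic replicate 1 and 12 RPM in wild type replicate 2, against 6.77 to 8.48 RPM. In the opposite direction, Pdk4 stood at 15 RPM in biallelic replicate 1 and 26.3 RPM in wild type replicate 2, against 34.4 to 43.5 RPM. Without both libraries 0 members and 0.00801% of all genes passed and the median was -0.10.

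**Figure D5:**
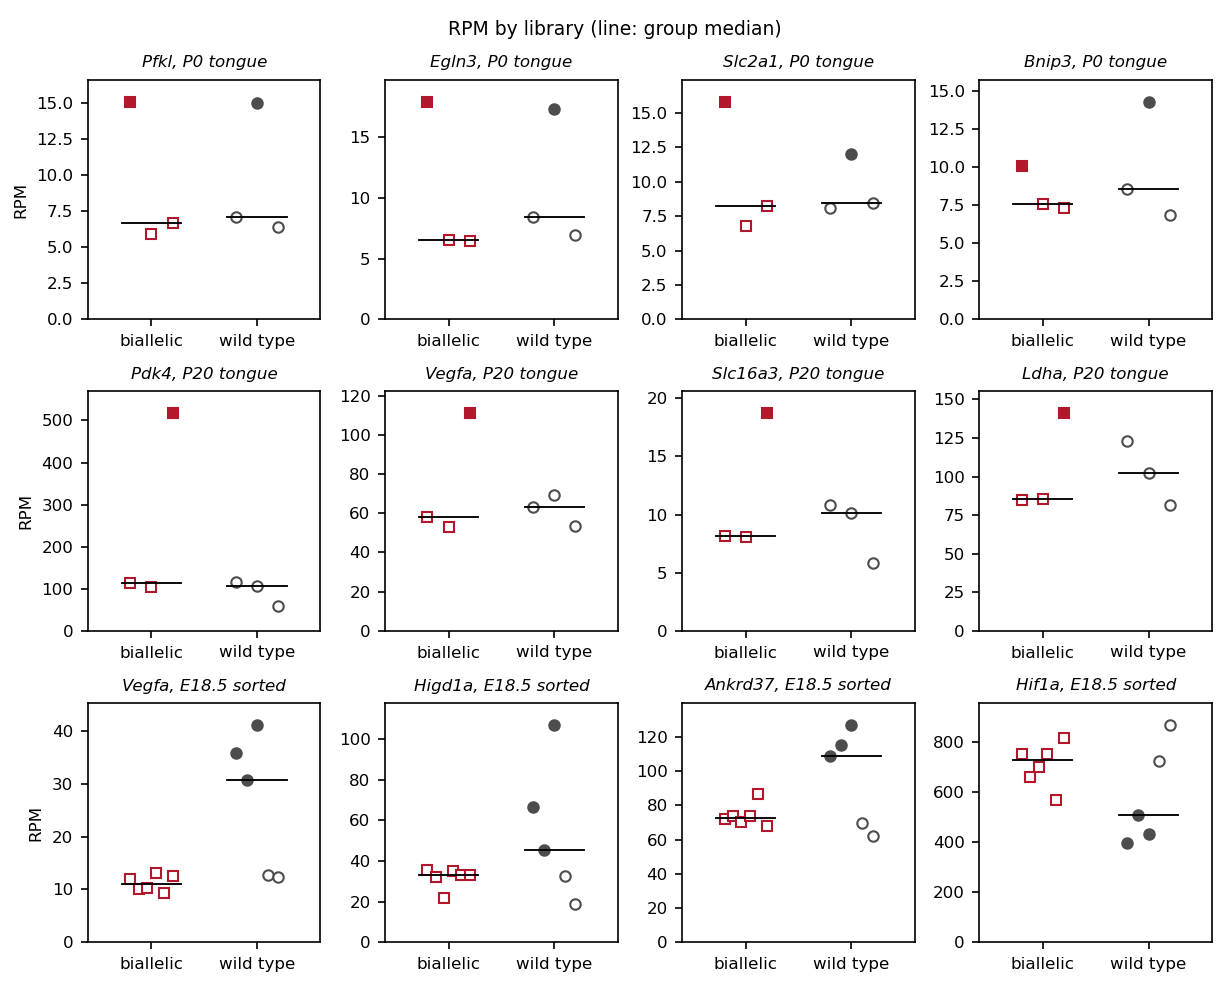
RPM in each library for genes in which single libraries stand apart: Pfkl, Egln3, Slc2a1 and Bnip3 at P0, Pdk4, Vegfa, Slc16a3 and Ldha at P20, and Vegfa, Higd1a, Ankrd37 and Hif1a in the sorted cells. Biallelic libraries (squares) are left of wild type ones (circles), lines are group medians and filled symbols are the libraries named in the text. Pdk4 reaches 517 RPM in 1 biallelic tongue of P20, against 60 to 117 RPM in the other 5.

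The sorted costal cells held mostly the widespread isozymes. Median levels per kilobase were 1060.1 RPM in biallelic and 1131 RPM in wild type cells for Aldoa, and 764 RPM in biallelic and 883 RPM in wild type cells for Ldha. Eno1 stood at 442 RPM per kilobase in biallelic and 438 in wild type cells, and Slc2a1 at 368 in biallelic and 322 in wild type cells. Pgam2, Slc2a4 and Ldhb, each at 0 to 3.88 RPM over all 11 libraries, rested on few reads, with 0 to 15 reads a library for Pgam2, 0 to 4 for Slc2a4 and 0 to 28 for Ldhb. In wild type cells Eno1 held a median of 99.2% of the enolases, Slc2a1 91.2% of the glucose transporters, Slc16a3 88.9% of the lactate transporters and Pdk1 87.3% of the kinases. Pfkl held 62.4% and Pfkm 0.477% of the phosphofructokinases there. Before division by exon length, Pfkp stood at 231 to 257 RPM and Pfkl at 167 to 239 RPM in wild type cells. Their order thus depends on the lengths used, 13401 bases for Pfkp and 6675 for Pfkl. The wild type tongues of P0, by comparison, had 96.4% Pfkm and 80.2% Slc2a4. Tongue and sorted cell tables were aligned and normalised separately and are set side by side without a test.

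Hypoxia genes were detected throughout these cells. Ero1l stood at 2285 to 4428 RPM in biallelic and 3111 to 4024 RPM in wild type cells, and Bnip3 at 929 to 1258 RPM in biallelic and 802 to 1389 RPM in wild type cells. Egln3 stood at 286 to 365 RPM in biallelic and 209 to 366 RPM in wild type cells, and Ndrg1 at 328 to 501 RPM in biallelic and 336 to 528 RPM in wild type cells. In all 4 the genotypes overlapped. Over the 34 genes tested the median genotype difference was -0.01 (log2; 0.22 with median centring), with 15 above 0, against -0.11 over all genes, and 0 of the 34 had groups that did not overlap, as 0.872% of all genes did. Immediate early genes, which respond to cell handling among other stimuli, summed to 3191 to 6931 RPM in biallelic and 3414 to 5406 RPM in wild type cells, and their part was not tested.

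Vegfa had the smallest p of the members in the sorted cells. It measured 11.9, 10, 10.2, 13.1, 9.42 and 12.5 RPM in biallelic and 35.7, 30.7, 41.1, 12.7 and 12.3 RPM in wild type libraries. Wild type replicates 7, 8 and 9 stood far above all others, and replicates 10 and 11 overlapped the biallelic range. The log2 difference was -1.07 ± 0.33 (SE, limma p = 0.005488, adjusted p = 0.4232), and without those 3 libraries it was -0.17 (limma adjusted p = 0.9593). The same 3 were highest for Ankrd37, since biallelic libraries stood at 68.1 to 86.4 RPM and wild type libraries at 109, 115, 127, 69.6 and 62.3 RPM. They were highest for Higd1a as well, with biallelic libraries at 21.9 to 35.8 RPM and wild type libraries at 66.7, 45.4, 107, 32.7 and 19.1 RPM. For Hif1a they were lowest, with biallelic libraries at 569 to 814 RPM and wild type libraries at 396, 507, 432, 723 and 868 RPM. The Hif1a difference was 0.33 with all libraries and -0.17 without the 3, and that of Higd1a was -0.54 with all and 0.33 without, so that both turned direction. On the first principal component the 3 stood at 64.3 to 89.8, against -52.2 to 17.2 for the other 8. Myeloid genes averaged 4.38 to 6.58 log2 RPM in the biallelic libraries, against 7.50 to 8.04 in these 3 and 4.90 and 5.66 in the other wild type ones. Their summed RPM overlapped, at 4192 to 5736 in biallelic and 4456 to 5496 in wild type libraries. Single myeloid genes differed in direction. S100a9 reached 631 RPM in wild type and 33.8 RPM in biallelic libraries, whereas Csf1r reached 598 RPM in wild type and 861 RPM in biallelic libraries. The part of myeloid genes in these differences was not tested.

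Single libraries of the sorted cells also stood at least 2-fold beyond all others. Ldhb was highest in biallelic replicate 5, at 3.88 RPM, against 0 to 1.7 RPM elsewhere, and Adm lowest in biallelic replicate 6, at 12.3 RPM, against 27.2 to 67.9 RPM elsewhere. Of all genes, 0.431% stood at least 2-fold above all other libraries in biallelic replicate 5, and 1.42% at least 2-fold below them in biallelic replicate 6. Pdk2 was at 0 RPM in wild type replicate 7 and Pdk4 at 0 RPM in wild type replicate 8, where 3 reads are worth 0.383 and 0.518 RPM, while Eno3 was lowest in wild type replicate 9, at 1.16 RPM. Of all genes, 2.25% stood at least 2-fold below all other libraries in wild type replicate 7, 5.07% in replicate 8 and 2.17% in replicate 9.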

How the data were processed

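Values came as deposited by the authors, in 4 tables on the log2 RPM scale, in which a gene with 0 reads carries the value of 0.9 reads. The submitters' processing notes name Trim Galore (0.4.2), the aligners TopHat2 (2.1.0) for tongues and HISAT2 for sorted cells, and the build GRCm38. The read counter, its strand setting and its treatment of multiple matches are unknown here. The depth of each library was recovered from whole reads, which 100% of values below 1000 reads matched to within 0.05. For 4 biallelic animals of the sorted cells the labels list 2 libraries each where the deposited values hold 1 column, so that 33 labelled samples became 29 columns. The test was limma (3.58.1, R 4.3.3) on genes reaching 1 RPM in 3 or more of 6 tongue libraries, or in 5 or more of 11 sorted libraries (trend, Benjamini-Hochberg adjustment, threshold 0.05), after a check on simulated data. Stage contrasts and differences of the genotype effect came from 1 fit of all 18 tongue libraries. No value was added before the logarithm, so the floor can understate changes of genes with few reads. Intervals cover 95%. Levels per kilobase used the union of exons in the GENCODE annotation of GRCm38. Alternatives were other filters (none, or 5 RPM), log2(RPM + 1), median centring, quantile normalisation, voom on recovered reads, no trend, each library left out, and the replicate number as a block.

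No pair of libraries agreed within sampling noise, the smallest chi-square per degree of freedom being 7.7. All 36 genes were named, in order of role, with single-library values for those past the threshold in wild type stages or beyond the other libraries by at least 2-fold, and ranges for the others; of the further lists, the 3 largest differences were named, except some that are not reported here. The members and lists were chosen with earlier results of these data known.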

Additional observations from a re-analysis of the deposited data

Results flagged for a closer look

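Each gene was screened for a single library whose gap to its nearest neighbour took most of the range of its group, in groups of 4 to 10 libraries. These were the groups of 6 biallelic and 5 wild type libraries of sorted cells, and the tongue groups of 3 were not screened. Of 68 groups, 10 held such a library, 7 of them biallelic and 3 wild type. Over all genes tested in the same libraries, 11% of biallelic and 6.96% of wild type groups held one, and chance gives about 1 in 20 groups.

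Biallelic replicate 5 was the high library in 5 of the 10. It measured 1881 RPM for Gpi1, against 1181 to 1342 RPM in the other biallelic libraries, and 4434 RPM for Aldoa, against 2989 to 3153 RPM. For Slc2a3 it measured 369 RPM, against 162 to 203 RPM, for Ddit4 100.1 RPM, against 29.7 to 41.3 RPM, and for Ankrd37 86.4 RPM, against 68.1 to 73.7 RPM. Its myeloid genes averaged 6.58 log2 RPM and its immediate early genes 6.91, each the highest biallelic value, and their part was not tested.

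Pfkp stood at 288 RPM in biallelic replicate 6, against 205 to 226 RPM in the others, and Higd1a at 21.9 RPM in biallelic replicate 3, against 32.1 to 35.8 RPM. Among wild type libraries, Aldoa stood at 2663 RPM in replicate 11, against 3286 to 3565 RPM, and Egln3 at 209 RPM in replicate 9, against 339.5 to 366 RPM. Ldhb stood at 0 RPM in wild type replicate 8, against 1.39 to 1.7 RPM, a level of few reads.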

How the results depend on the processing

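The count of members past the threshold for genotype stayed at 0 in all 4 tables, and for the differences of the genotype effect between stages, under every alternative run. The median difference in the sorted cells was 0.22 with median centring, against -0.01 as reported, and the median of all genes moved there to 0.12, against -0.11. With the replicate block the members' medians were 0.55 at E13.5, -0.13 at P0 and 0.06 at P20, with 0 called. Correlations of same-numbered deviations ran between 0.04 and 0.16 at E13.5, between -0.49 and 0.36 at P0 and between -0.65 and -0.29 at P20. With so few libraries per group, these correlations cannot decide whether replicate numbers paired the samples, for example by litter.

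Between E13.5 and P0, biallelic libraries gave 9 rising and 14 falling, against 17 and 9 in wild type libraries, where 39.8% of all genes rose and 37.7% fell in biallelic libraries, against 37.9% and 40.1% in wild type ones. Between P0 and P20 the biallelic libraries gave 1 falling, against 3 in wild type, and without E13.5 biallelic replicate 3 they gave 17 rising and 5 falling. Wild type libraries gave 6 falling with median centring and 8 with quantile normalisation. Leaving out 1 library at a time gave 7 to 15 rising and 0 to 8 falling over that step, where 24.3% to 34.4% of all genes rose and 12% to 16.3% fell, 15 and 8 being without E13.5 biallelic replicate 3. Falling genes numbered 0 without P20 wild type replicate 3, and 1 without P0 wild type replicate 1 or 2 or P20 wild type replicate 2. The causes were not tested. Depth limits Adm, Aldoc and Ankrd37 in tongue and Pgam2, Slc2a4 and Ldhb in sorted cells, all near the filter or below it. The contrast of biallelic libraries without replicate 3, and P0 without wild type replicate 2 and biallelic replicate 1, were added after seeing the data, as were the further pathway genes without the libraries that stood apart.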
